A study of Mus musculus with 8 samples.

Results

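This account covers 8 genes for the surface and helper molecules by which follicular helper T cells find B cells and instruct them: Cxcr5, S1pr2, Gpr183, P2rx7, Icos, Cd40lg, Cd200 and Il21. The genes were chosen by name, as array features (transcript clusters) that carry exactly 1 of these symbols, and all 8 were measured, out of 19938 named genes on the array. Each was read by 1 transcript cluster. RNA came from naive CD4 T cells, helper T cells that have not yet met antigen, sorted from wild-type mice (4 arrays) and from T cell-specific conditional Bcl6-/- animals (4 arrays, called Bcl6 cKO here). All 8 samples had received anti-CD3 and anti-CD28 antibodies over 24 hours, so every value below is that of an activated cell and no resting sample was available for comparison. The Cre line, the deleted exons, the strain, age and sex of the mice, and whether any mice were pooled, are not stated by the labels, nor is the meaning of the tag Tf0 that all samples carry.

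Follicular helper T cells move from the T cell zone of a lymph node or spleen into the B cell follicle, where they drive germinal centres. Bcl6, a transcriptional repressor, is the factor best known for directing this fate. Cxcr5 is the receptor for the follicle chemokine Cxcl13, Gpr183 (also called EBI2) guides cells towards oxysterols at the follicle border, and S1pr2 holds cells within the germinal centre. Icos and Cd40lg (CD40 ligand) act at the contact with a B cell, Cd200 is a surface ligand of an inhibitory receptor on myeloid cells and marks follicular helper cells, and Il21 encodes their main helper cytokine. P2rx7 is an ATP-gated channel that limits the number of follicular helper cells.

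The sorted cells carried the markers of CD4 T cells, though not those alone. The mean over the 9 measured markers of that lineage, Cd4 and Cd3e among them, lay between 12.37 and 12.57 (log2 signal) on the 8 arrays. All 9 measured B cell markers, such as Cd79a, Ms4a1 and Pax5, had means over the 8 arrays no higher than the brightest of 17 genes that lymphocytes do not use (silent genes, among them albumin and the keratin Krt5, which read 5.45 to 8.20). The mean over the 9 B cell markers ran from 6.21 to 6.27 in wild type and from 6.20 to 6.31 in Bcl6 cKO. B cells also express Cxcr5, Gpr183 and Cd200, so this bears on those readings. The measure sets a marker's mean against the highest single-array reading of a silent gene (8.20). By it 9 of the 10 macrophage and dendritic cell markers, all 6 NK cell markers and all 5 neutrophil markers were no higher. Eomes, which T cells can also express, had means of 8.32 in wild type and 8.06 in Bcl6 cKO, and read up to 8.90. The brightest silent gene had a mean of 8.1. Cd8b1 (10.41 to 11.12) and Foxp3 (8.83 to 9.86) read above every silent gene on all 8 arrays. Cd8a, the other CD8 marker measured, did not (6.90 to 7.14). Of the other regulatory T cell markers, Il2ra and Ctla4 read above the silent genes, and Ikzf2 and Nrp1 within their range. Cd8b1 and Foxp3 were lower in Bcl6 cKO without overlap, as were 3.64% of all genes. For Foxp3 the nearest values were 9.61 in wild type and 9.60 in Bcl6 cKO. Nrp1 was higher in Bcl6 cKO. Bcl6 itself had a wild-type log2 signal of 8.36 ± 0.20 and a Bcl6 cKO signal of 8.74 ± 0.27 (mean ± SD, n = 4 each), which is a signal that checks the genotype labels only if its probes lie in the deleted exons. Wild-type array 4 stood apart, with an interquartile range of 0.180 for the deviations from each gene's median, against 0.085 to 0.115 on the other 7 arrays. Y-linked genes were high on wild-type arrays 1 to 3 and Bcl6 cKO array 1 and low on the other 4, so sex was unequal between the genotypes. Nothing in the labels says that samples came from separate mice, and p-values therefore measure only the spread between these samples, which may be technical. In bulk RNA fewer cells that express a gene and less of its RNA per cell cannot be told apart.

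The comparison asks which of the 8 genes depend on Bcl6 in these cells. Cd200 was the member that passed limma's test across all genes (adjusted p = 0.0423), and it rose in Bcl6 cKO. That is 1 of 8 members, beside 0.221% of all 19938 genes called in either direction (0.105% called higher and 0.115% called lower). The members were chosen with earlier results of these data known, so their counts beside all genes are a description and not an independent test. The members did not share a direction: 5 lay above and 3 below wild type (median log2 difference 0.028), against 0.003 over all genes, of which 52.1% were above. At an unadjusted p under 0.05 in limma there were 3 members (Cd200, Cxcr5 and P2rx7), where 10.9% of all genes reached that level. The groups did not overlap for 2 members, Cd200 and Cxcr5, in opposite directions, beside 5.97% of all genes (2.33% with the Bcl6 cKO arrays higher and 3.64% with them lower).

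**Figure D1:**
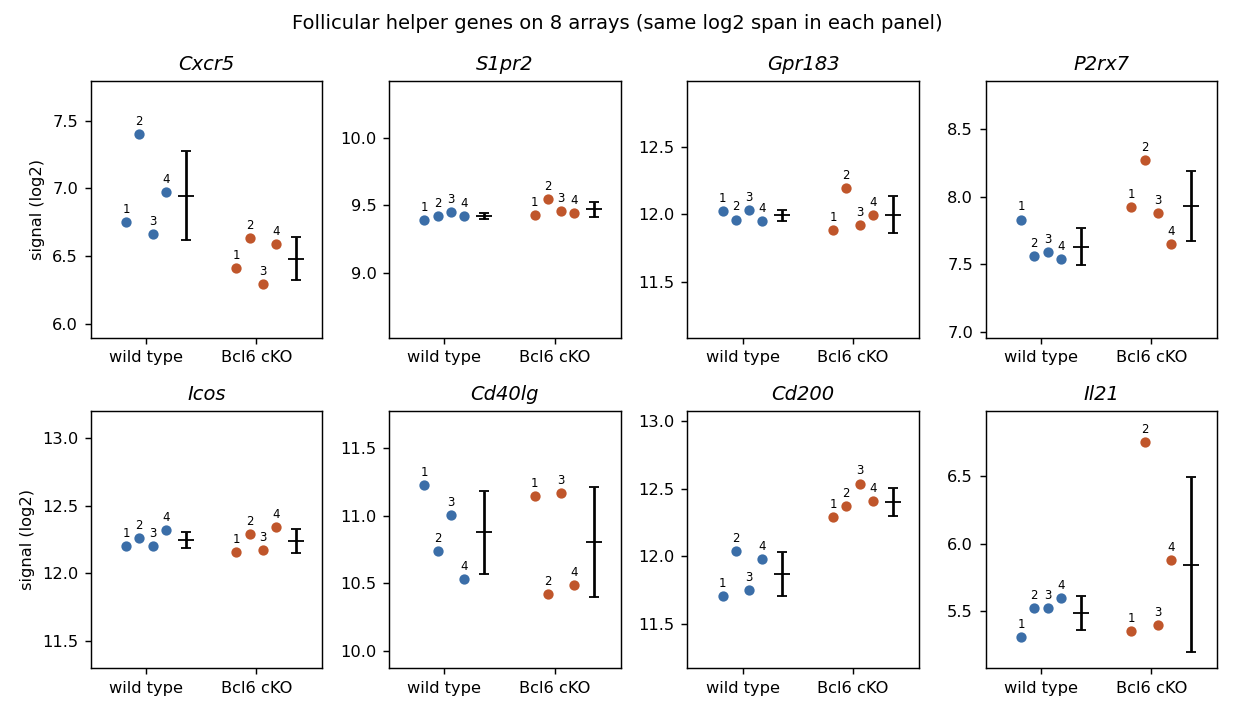
Log2 signal of the 8 genes on the wild-type (blue) and Bcl6 cKO (orange) arrays, with the replicate number above each point and the mean ± SD (n = 4) in black beside each group; every panel spans the same number of log2 units. The 4 Bcl6 cKO values of Cd200 (12.29 to 12.54) sit above all wild-type values (11.71 to 12.04), and Cd40lg falls into a high and a low pair within each genotype.

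Among the receptors that position the cells, Cxcr5 had the largest difference of either sign except for Cd200. Its wild-type values were 6.75, 7.40, 6.66 and 6.97 (log2, arrays 1 to 4), and its Bcl6 cKO values were 6.41, 6.63, 6.29 and 6.59. All 4 Bcl6 cKO arrays were below all 4 wild-type arrays, by 0.03 between the nearest pair, and wild-type array 2 was the highest. The log2 difference was -0.46 with a 95% confidence interval of -0.78 to -0.15. It did not pass in limma over all genes (adjusted p = 0.257), and a two-sided exact permutation test of the 8 values gave p = 0.0286, the smallest that 4 arrays against 4 allow. Without wild-type array 2 the difference was -0.31. All 8 values lay within the range of the silent genes, so the Cxcr5 signal was not shown to stand above background and no fold is given. Among arrays of high Y-linked signal the difference was -0.53, and among the rest -0.47, each with 1 array of a genotype against 3.

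S1pr2 and Gpr183 guide cells within and around the follicle, and their differences had narrow confidence intervals. S1pr2 read 9.39, 9.42, 9.45 and 9.42 in wild type and 9.43, 9.55, 9.46 and 9.44 in Bcl6 cKO. Its pooled SD of 0.0424 was smaller than that of most genes, with 4.7% of genes lower. The log2 difference was 0.05, and its 95% confidence interval corresponds to 0.962 to 1.11 times the wild-type level (limma adjusted p = 0.79). Gpr183 read 12.02, 11.96, 12.03 and 11.95 in wild type and 11.88, 12.19, 11.92 and 11.99 in Bcl6 cKO. The wild-type values lay inside the range of the Bcl6 cKO values, and the pooled SD of 0.102 was larger than that of 58.1% of genes. The interval of the difference corresponds to 0.903 to 1.11 times wild type (adjusted p = 0.989 in limma).

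P2rx7, the ATP-gated channel, read 7.83, 7.56, 7.59 and 7.54 in wild type and 7.92, 8.27, 7.88 and 7.65 in Bcl6 cKO. Bcl6 cKO array 2 was the highest, all 4 Bcl6 cKO values were above the wild-type mean, and the groups overlapped through wild-type array 1 and Bcl6 cKO array 4. The log2 difference was 0.30 with a 95% confidence interval of 0.04 to 0.56, which did not pass over all genes in limma (adjusted p = 0.378; two-sided exact permutation p = 0.0571). On 7 of the 8 arrays the signal was no higher than that of the brightest silent gene, so no fold is given. Without Bcl6 cKO array 2 the difference was 0.19.

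Of the molecules that act at the contact with B cells, Icos, the costimulatory receptor of the CD28 family, was the steadiest. It read 12.20, 12.26, 12.20 and 12.32 in wild type and 12.16, 12.29, 12.17 and 12.34 in Bcl6 cKO. The group means were both 12.24, and the 95% confidence interval of the difference corresponds to 0.912 to 1.09 times the wild-type level (limma adjusted p = 0.986). The signal was far above that of the silent genes in both genotypes.

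Cd40lg, the TNF family ligand that engages CD40 on B cells, read 11.23, 10.74, 11.01 and 10.53 in wild type and 11.15, 10.42, 11.17 and 10.49 in Bcl6 cKO. The genotype means were 10.88 ± 0.31 and 10.81 ± 0.41 (SD, n = 4 each), a log2 difference of -0.07 with an interval of -0.50 to 0.36 (limma adjusted p = 0.952). The spread followed the replicate number instead. Arrays numbered 1 and 3 read 11.01 to 11.23 in both genotypes, and those numbered 2 and 4 read 10.42 to 10.74, a gap of 0.27 between the nearest arrays. Its pooled SD within genotype, 0.361, was larger than that of 99.0% of genes. The labels do not say what the numbers stand for. The share of all genes that divide by odd and even number is not given here, so the division is not shown to be particular to Cd40lg. Cd40lg lies on the X chromosome, and 6 of the 8 arrays also divided by sex. Wild-type arrays 1 and 3 and Bcl6 cKO array 1, with high Y-linked signal, read 11.01 to 11.23, and wild-type array 4 and Bcl6 cKO arrays 2 and 4, with low Y-linked signal, read 10.42 to 10.53. The exceptions were wild-type array 2 (high Y-linked signal, 10.74) and Bcl6 cKO array 3 (low, 11.17). With sex as a term the genotype difference was 0.16 (limma adjusted p = 0.823). The parts of replicate number and sex in this division were not tested.

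Icos followed the same numbers in the opposite sense and on a smaller scale. Arrays 1 and 3 read 12.16 to 12.20 and arrays 2 and 4 read 12.26 to 12.34, with no overlap. Here too no share of all genes is given beside the division. Across the 8 arrays Icos and Cd40lg had a Pearson r of -0.94, and -0.95 after the genotype means were removed, as a description of arrays that share this division. Each genotype has equally many arrays of odd and of even number. A term for odd or even number therefore cannot move the genotype difference of Cd40lg from -0.07, and only its error can change. With that term Cd40lg still did not pass (limma adjusted p = 0.80).

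**Figure D2:**
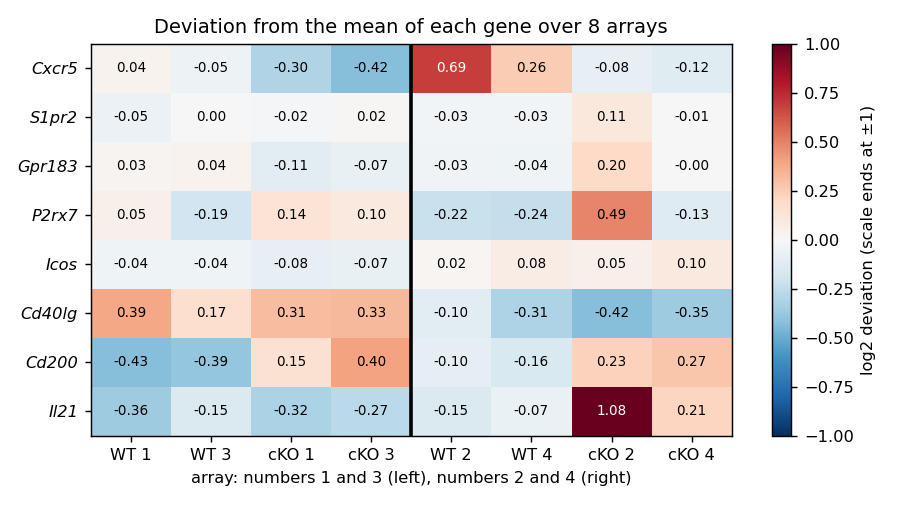
Deviation of each gene from its own mean over the 8 arrays (log2; red above, blue below), with arrays numbered 1 and 3 left of the line and 2 and 4 right of it. Cd40lg is above its mean on every array to the left and below it on every array to the right, while Cd200 is below its mean on all 4 wild-type arrays and above it on all 4 Bcl6 cKO arrays.

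Cd200 read 11.71, 12.04, 11.75 and 11.98 in wild type and 12.29, 12.37, 12.54 and 12.41 in Bcl6 cKO. The lowest Bcl6 cKO array was 0.25 above the highest wild-type array. The means were 11.87 ± 0.16 and 12.40 ± 0.10 (log2, SD, n = 4 each), a rise of 1.45-fold with a 95% confidence interval of 1.27 to 1.65. In limma Cd200 ranked 32 of all genes by p (adjusted p = 0.0423), and the two-sided exact permutation test gave p = 0.0286, the smallest possible. The call was close to the threshold. It passed in 2 of the 8 fits that leave out 1 array (without wild-type array 2 or Bcl6 cKO array 1), with adjusted p between 0.0305 and 0.156 over the 8. Wild-type array 1 or 3 or 4, or Bcl6 cKO array 2 or 3 or 4, when left out, each took it past 0.05, while the log2 difference kept between 0.48 and 0.59. With sex as a term the difference was 0.46 (adjusted p = 0.169), and it was 0.46 within the arrays of high and 0.46 within those of low Y-linked signal. Each of the latter rests on 1 array of a genotype against 3, Bcl6 cKO array 1 and wild-type array 4. Wild-type array 4 is the array whose deviations spread widest (interquartile range 0.180). The fit with sex as a term draws on the same contrasts, so these values are not independent. Cd200 also missed the threshold after quantile normalization (adjusted p = 0.059).

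Cd200 lies on chromosome 16, as Bcl6 does, with 162 tested genes between them in the gene order of GRCm38.p6. Of the 5 tested genes on each side of Cd200, 6 lay above and 4 below wild type (median log2 difference 0.02). Slc35a5, a nucleotide sugar transporter family gene, passed and fell by 0.44 on the log2 scale (limma adjusted p = 0.00564), from 9.59 to 9.61 on the wild-type arrays to 9.12 to 9.21 on the Bcl6 cKO arrays. Btla, a coinhibitory receptor gene of follicular helper cells and the highest of the 10 neighbours, had a difference of 0.25 and did not pass (adjusted p = 0.336). Of the 10 nearest tested genes of Bcl6 itself, 3 lay above wild type (median log2 difference -0.02). Lpp, with a difference of 0.99, was the 1 of them that passed in limma. Since Cd200 shares a chromosome with the modified allele, loss of Bcl6 and linked differences between the mice cannot be told apart for it. None of the 70 nearest tested genes of the other 7 members passed in limma, where 0.221% of all genes did. An unadjusted p under 0.05 was found for 7 of the 70, beside 10.9% of all genes.

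Promoter sequence is shown for Cd200, the member past the threshold, and for Il21, the member with the widest spread, as the 250 bases before the RefSeq transcription start in GRCm38.p6. Capitals mark matches on either strand to any of 4 motifs: TTCNNNGAA (the palindrome core shared by BCL6 and STAT factors), TGANTCA (AP-1), GGAAA (the NFAT core) and GGGCGG (the GC box).
Cd200 (chr16:45409054-45409303, minus strand): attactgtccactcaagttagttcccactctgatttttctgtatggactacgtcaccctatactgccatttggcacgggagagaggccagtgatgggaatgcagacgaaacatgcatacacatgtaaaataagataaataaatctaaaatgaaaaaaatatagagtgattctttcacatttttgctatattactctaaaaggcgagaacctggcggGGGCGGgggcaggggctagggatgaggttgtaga
Il21 (chr3:37232637-37232886, minus strand): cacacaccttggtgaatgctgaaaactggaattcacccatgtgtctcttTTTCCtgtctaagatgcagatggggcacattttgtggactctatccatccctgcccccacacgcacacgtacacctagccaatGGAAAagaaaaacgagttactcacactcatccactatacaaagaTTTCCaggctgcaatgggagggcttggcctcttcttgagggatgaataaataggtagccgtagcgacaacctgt
The Cd200 window held 1 GC box, 34 bases before the start, and none of the other 3 motifs. The Il21 window held 3 NFAT cores, which begin 201, 118 and 74 bases before the start. Among 32851 mouse promoter windows of this length 32.7% held a GC box, 55.6% an NFAT core, 6.75% an AP-1 motif and 7.02% the BCL6 and STAT core. No window found for a member (Cd200, Il21, S1pr2, Gpr183 and P2rx7) held the BCL6 and STAT core, which says only that these letters are not in these bases.

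Il21, which encodes the cytokine that drives germinal centre B cells and plasma cells, read 5.31, 5.52, 5.52 and 5.60 in wild type. In Bcl6 cKO it read 5.35, 6.75, 5.40 and 5.88. Bcl6 cKO array 2 stood 0.87 above the next array, and arrays 1 and 3 lay among the wild-type values. The group means were 5.49 ± 0.12 and 5.84 ± 0.65 (SD, n = 4 each), and the log2 difference of 0.36 had an interval of -0.20 to 0.92 (limma adjusted p = 0.679). Without Bcl6 cKO array 2 the difference was 0.06. It was -0.10 within the arrays of high and 0.41 within those of low Y-linked signal, each with 1 array of a genotype against 3. All 8 values lay below the brightest silent gene, so the signal was not shown to stand above background and no fold is given.

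Bcl6 cKO array 2 was the highest of the 8 arrays for 4 of the 8 members, Il21, S1pr2, Gpr183 and P2rx7, and the lowest for Cd40lg. No other array was the highest for more than 1 member. The share of all genes that were highest on Bcl6 cKO array 2 is not given here, so the count is not shown to be particular to the members. S1pr2 stood 0.09 above the next array there. Il21 correlated with S1pr2 (Pearson r 0.88) and with Gpr183 (0.84) across the 8 arrays, values that describe mainly that array. Il2, the T cell growth factor gene whose locus neighbours Il21 on chromosome 3, was also highest there, with 12.23 against 10.88 to 11.88 on the other 7 arrays. The genotype differences without this array were 0.02 for S1pr2 and -0.06 for Gpr183, and neither passed.

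**Figure D3:**
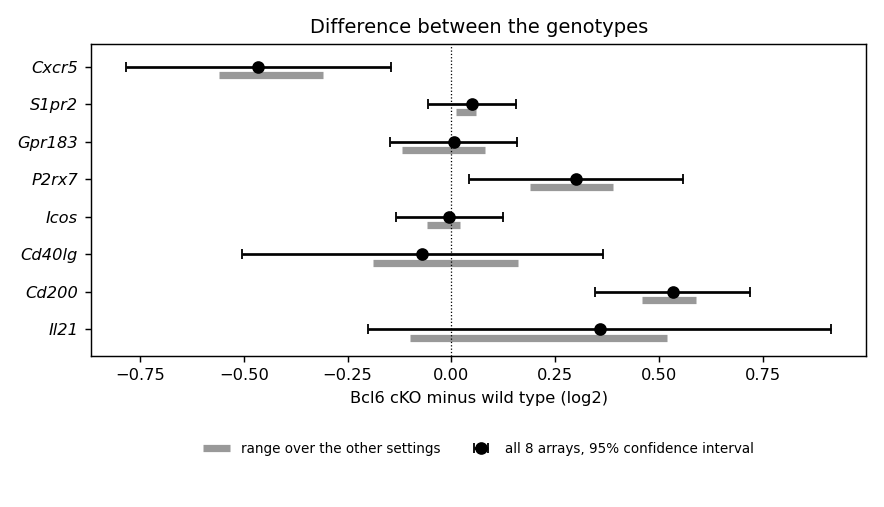
Log2 difference of each member, Bcl6 cKO minus wild type, from all 8 arrays (black point, with its 95% confidence interval) and the range of the difference over the other settings tried (grey bar). Cd200 (0.46 to 0.59 over those settings) stays above 0, Cxcr5 stays below 0, and the bars of Cd40lg, Gpr183, Icos and Il21 cross it.

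The genes whose signal followed Cd200 most closely over the 8 arrays, among 9567 other genes with a mean signal at or above the median and no symbol of a predicted model, clone or pseudogene, were Tet1 (Pearson r 0.979), which encodes a DNA demethylase, Acsl5 (0.968), a fatty acyl-CoA ligase gene, and Luzp1 (0.964). Luzp1 passed in limma and rose by 0.48 on the log2 scale (adjusted p = 0.0136), from 7.70 to 7.90 in wild type to 8.26 to 8.37 in Bcl6 cKO. For Cxcr5, among 9568 genes, they were Lrba (0.972), Mgst2 (0.964) and Cbx7 (0.96). For Il21, among the same number, they were Polk (0.981), Nfil3 (0.98) and Wdr25 (0.972). Nfil3, a basic leucine zipper repressor gene, read 9.03 on Bcl6 cKO array 2 and 7.46 to 8.14 on the other 7 arrays. After the genotype means were removed, r with Cd200 was 0.87 for Tet1, 0.861 for Acsl5 and 0.776 for Luzp1. For the genes named with Cxcr5 and Il21 it was 0.922 to 0.99. The signals of Cxcr5 and Il21 were not shown to stand above background. These likenesses are a description of 8 arrays, with no test.

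The molecules that pair with the members were next. For this and the following lists, 52.1% of all genes lay above wild type and 10.9% had an unadjusted p under 0.05 in limma. The lists too were chosen with earlier results of these data known. Of 14 measured partner genes 6 lay above and 8 below wild type (median log2 difference -0.01). None passed in limma over all genes, and 1 had an unadjusted p under 0.05. That gene was Panx1, a channel that releases ATP, with a difference of -0.17 (adjusted p = 0.347). Entpd1 (CD39), which degrades the ATP that P2rx7 senses, had a difference of 0.38 (adjusted p = 0.462). Its values, 5.57 to 6.61, all lay within the range of the silent genes. The mean signals of 10 of the 14 were no higher than that of the brightest silent gene, among them Cxcl13, Icosl, Cd40 and Cd200r1, the ligands and receptors borne mostly by other cells. Il21r, the receptor through which T cells themselves sense Il21, was brighter. It was picked for its role, and its wild-type mean was 11.21 ± 0.07 and its Bcl6 cKO mean 11.10 ± 0.08 (SD, n = 4 each; limma adjusted p = 0.546).

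Among 22 relatives from the same receptor and ligand families 9 lay above and 13 below wild type (median -0.04). None passed over all genes in limma and 7 had an unadjusted p under 0.05, beside 10.9% of all genes. The sphingosine-1-phosphate receptor S1pr4 read 10.30 to 10.81 in wild type and 9.82 to 10.22 in Bcl6 cKO without overlap (log2 difference -0.49, adjusted p = 0.126). S1pr1, the egress receptor, had a difference of -0.77 with SDs of 0.45 and 0.39 (adjusted p = 0.23). It was picked out after its value was seen, as the relative of S1pr2 farthest from 0. Cxcr4, the chemokine receptor of the germinal centre dark zone, had a difference of -0.37 (adjusted p = 0.16), and P2rx4, a channel related to P2rx7, had -0.24 (adjusted p = 0.205; picked after its value was seen). Cxcr4 read 8.00 to 8.36 in wild type, and its Bcl6 cKO values (7.66 to 7.97) lay within the range of the silent genes.

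The other follicular helper genes did not pass either. Of 17 measured genes 5 were above and 12 below wild type (median -0.10). An unadjusted p under 0.05 in limma was reached by 5, beside 10.9% of all genes. Il6st, the shared chain of the interleukin-6 receptors, had a difference of -0.23 (adjusted p = 0.164). The inhibitory receptor gene Pdcd1 had means of 10.49 ± 0.45 (wild type) and 10.38 ± 0.54 (Bcl6 cKO; SD, n = 4 each; picked for its role as a marker), a spread wider than its difference. Of 9 measured surface genes listed as low on follicular helper cells, 8 were below wild type (median -0.23). The list includes Cd69 and Il2ra, which are also counted here as genes of activated T cells. None of the 9 passed over all genes, and 3 had an unadjusted p under 0.05 in limma, beside 10.9% of all genes. Selplg, the gene of the selectin ligand PSGL-1, read 12.27 to 12.36 in wild type and 11.84 to 12.11 in Bcl6 cKO (log2 difference -0.32, adjusted p = 0.0747). Itga4, an integrin chain, had a difference of -0.48 (adjusted p = 0.141).

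Of 12 measured genes listed for signalling downstream of Icos and of Cd40lg partners, some of which restrain it, 11 were below wild type. The median was -0.09. None passed in limma over all genes and 2 had an unadjusted p under 0.05, beside 10.9% of all genes. Pik3cd, the leukocyte PI3 kinase catalytic subunit that Icos engages, read 11.50 to 11.59 in wild type and 11.29 to 11.40 in Bcl6 cKO (log2 difference -0.22, adjusted p = 0.116). Pik3r5 had a difference of -0.19 (adjusted p = 0.307). Of the 9 CD4 T cell markers 8 were below wild type as well, with the same median of -0.09. None of them passed in limma over all genes and 1 had an unadjusted p under 0.05.

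**Figure D4:**
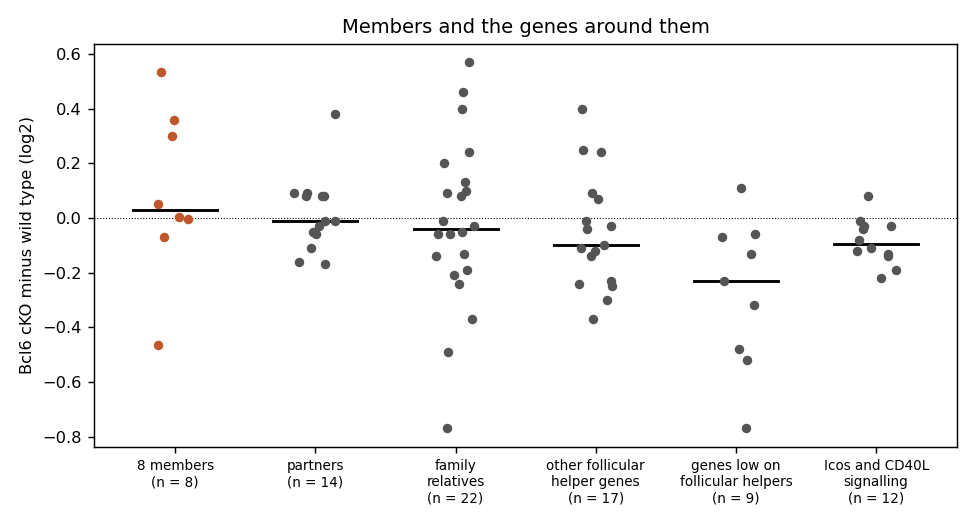
Log2 difference, Bcl6 cKO minus wild type, of the 8 members (orange) and of the genes of 5 lists around them (grey), 1 point a gene, with the median as a bar. The 9 genes listed as low on follicular helper cells have the lowest median (-0.23), and of all the points shown Cd200 alone passed limma's threshold over all genes.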

How the data were processed

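The values used are log2 signals deposited by the authors, 1 per transcript cluster and array, between 2.85 and 14.65. Per the submitters' processing notes they were made with RMA and Partek; the log base was inferred from RMA's use of log2 and from how far the values span. RMA background-corrects, equalises and summarises probes, which compresses differences of dim genes. Tool versions are not given in the sources used. Per the labels' protocols, 100 ng of RNA per sample was biotinylated. Of 35556 clusters 21789 carry 1 symbol. A gene read by several clusters was represented by the brightest, leaving 19938 genes; 19856 matched RefSeq by Entrez ID. The number of arrays limits the precision.

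Genotypes were compared with limma 3.58.1 (R 4.3.3; lmFit, eBayes without trend), with Benjamini-Hochberg adjustment over all genes and a threshold of 0.05. Differences are Bcl6 cKO minus wild type, in log2. The fit was tested on simulated data. The members and lists were chosen with earlier results of these data known. Named list genes are the 2 with the smallest p per list and any past the threshold; the text says where a gene was picked otherwise. Alternatives were other moderation, array weights, scaling, filters on dim genes, the mean of clusters, sex, the replicate block, odd or even numbers, and leaving out each array.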

Additional observations from a re-analysis of the deposited data

How the results depend on the processing

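Cd200 kept its direction in all 21 other settings and its call in 9 of them. Several of these settings, such as other moderation, the filters, the replicate block and odd or even number, cannot move its difference. The number of members past the threshold, 1 with all 8 arrays, was 0 after quantile normalization (3 members at an unadjusted p under 0.05 in limma), with sex as a term (3), with sex and odd or even number as terms (2), and within the arrays of high (1) and of low (2) Y-linked signal. It ranged from 0 to 1 without 1 array. With the replicate block it was 0 (3 unadjusted), with an adjusted p of 0.0575 for Cd200. Deviations from the group means of same-numbered arrays 1 to 4 correlated at 0.073, 0.206, 0.203 and 0.205. Wild-type and Bcl6 cKO arrays 2, 3 and 4 each correlated best with their own number, 6 of the 8 arrays, a hint of pairing from the data. Pair 1 was not over 0.1 and the labels name no pairing, so the numbers were not used as a block in the fit reported.

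Over all genes 44 passed. The count was 91 with trend and robust moderation, 80 with array weights, 67 and 75 with the filters at the 30th percentile and the median of signal, 93 with odd or even number, 10 with sex, 10 with sex and odd or even number, and 11 to 139 without 1 array (139 without Bcl6 cKO array 1).

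Some members changed sign without passing. With array weights Icos was 0.02 and Gpr183 -0.02, and Gpr183 was -0.02 after quantile normalization. With sex as a term Cd40lg was 0.16 and Gpr183 -0.02, and with both sex and odd or even number Gpr183 was -0.0025. Within the arrays of high Y-linked signal Il21 was -0.10, Cd40lg 0.16 and Gpr183 -0.12, and within the others Cd40lg was 0.16. Without 1 array Icos ranged from -0.04 to 0.02, Gpr183 from -0.06 to 0.04 and Cd40lg from -0.19 to 0.06. The cause of these changes was not tested. Fits within the sexes and with sex and number together were added after the data were seen. Cxcr5 and Il21 fell below the filters on dim genes (Il21 below both, Cxcr5 below the median) and have no value there.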

Other observations

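Of 10 measured genes of activated T cells, Bcl6 cKO array 2 was the highest of the 8 arrays for 4 (Il2ra, Irf4, Cd44 and Il2), a wild-type array for 4 (Cd69, Tnfrsf9, Nr4a1 and Egr2) and another Bcl6 cKO array for the other 2. The adhesion receptor gene Cd44 read 9.28 on Bcl6 cKO array 2 and 7.61 to 8.92 elsewhere, with a log2 difference between the genotypes of 0.81 (limma adjusted p = 0.178). Of these 10 genes 6 had higher and 4 lower means in Bcl6 cKO (median log2 difference 0.10), where 52.1% of all genes were higher. None passed over all genes in limma, and 3 had an unadjusted p under 0.05, beside 10.9% of all genes. Of 5 regulatory T cell markers 2 lay above and 3 below wild type. Nrp1 rose (log2 difference 0.82, limma adjusted p = 0.0358), from 6.91 to 7.29 in wild type to 7.54 to 8.08 in Bcl6 cKO. All its values lay within the range of the silent genes, so the Nrp1 signal was not shown to stand above background. Foxp3, the lineage factor, read 9.61 to 9.86 in wild type and 8.83 to 9.60 in Bcl6 cKO. Its log2 difference of -0.50 did not pass (limma adjusted p = 0.20). Cd8b1, a chain of the CD8 coreceptor, read 10.90 to 11.12 in wild type and 10.41 to 10.78 in Bcl6 cKO without overlap (log2 difference -0.47, adjusted p = 0.0541), whereas Cd8a lay within the range of the silent genes on all 8 arrays.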
